A study of Sus scrofa with 6 samples.

Results

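The platelet-derived growth factor (PDGF) family was examined in porcine granulosa cells of atretic antral (AA) follicles and healthy antral (HA) follicles. Of its genes, 6 were taken by name, which were the receptors PDGFRA and PDGFRB and the ligands PDGFA, PDGFB, PDGFC and PDGFD. They gave 5 named genes among the 19442 lines of the gene table, 2 PDGFRA transcripts among the 392 transcripts of the noncoding RNA table and 4 of the 9362 circular RNAs (circRNAs). The genes had been chosen with the difference between AA and HA in view, so their own values are given here as a description. Where a fit over all features held them, nothing is read from whether they were called.

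Each group held 3 libraries of rRNA-depleted total RNA, and each library came from mural granulosa cells pooled from 10 follicles of nulliparous gilts in the follicular phase. AA follicles, opaque and without clear vessels on their surface, were at an advanced stage of atresia, the degeneration of a follicle with death of its granulosa cells. HA follicles had a vascular sheath and clear fluid. Cells scraped off the wall were combined with the fluid of the same follicles for AA and HA alike, and the fluid of AA follicles brought in loose apoptotic granulosa cells. Follicles were sorted by eye and assigned to pools at random, so that the p-values below measure the spread between pools and not between animals. The libraries of a group carry different dates in the labels, so the spread between pools cannot be told apart from that between dates.

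PDGF ligands are secreted as dimers that bind receptor tyrosine kinases on the cell surface. PDGFA, PDGFB and PDGFC act mainly through receptor alpha or both receptors, PDGFD acts mainly through receptor beta, and PDGFC and PDGFD have to be cut by a protease before they can bind. In the ovary, PDGF receptors are best known from theca, stromal and perivascular cells that surround the granulosa layer, and receptor beta is a classical marker of pericytes.

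PDGFRB, the gene of receptor beta, had 5.74, 14.6 and 2.71 FPKM (fragments mapped to a gene, scaled to its length and to the mapped fragments of the library) in AA libraries 1, 2 and 3, against 0.271, 0.855 and 0.116 FPKM in HA libraries 1, 2 and 3. All 3 AA libraries lay above all 3 HA libraries, and AA library 2 was the highest of the 6. The means were 7.67 ± 6.16 FPKM in AA and 0.414 ± 0.390 FPKM in HA (SD, n = 3 each), a ratio of 18.5. By limma on log2(FPKM + 1), a scale that understates the change of low genes, the difference of AA minus HA was 2.40 (SE 0.52). Estimated reads behind these values numbered 179, 373 and 90 for AA, against 8, 31 and 4 for HA, so that the HA level rested on few reads. The spread within a group was wide, since the highest library had 5.38 times the level of the lowest in AA and 7.36 times in HA. The ratio of the means was 10.196 without AA library 2 and 39.6 without HA library 2.

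The pig assembly Sscrofa10.2 carried PDGFRB in pieces. The line named PDGFRB (ENSSSCG00000014442) was placed at chr2:157908465-158077825 on the minus strand, an interval that the table also gives to SLC26A2, a sulfate transporter, and to other lines. A second line (ENSSSCG00000022741, chr2:158113409-158121876, minus strand), which only a list of reference gene names calls PDGFRB, had 1.65, 5.15 and 1.53 FPKM in AA against 0.150, 0.0720 and 0.219 FPKM in HA. Its groups were apart, and AA library 2 was the highest. This line reached 1 FPKM only in AA, so that the filter of the fit below (1 FPKM in 3 or more libraries) fixed its separation. The means of the second line were 2.78 ± 2.06 FPKM in AA and 0.147 ± 0.0735 FPKM in HA (SD, n = 3 each), a ratio of 18.9 and a log2 difference of 1.59 (SE 0.41). This ratio was 10.8 without AA library 2. It rested on 82, 204 and 80 estimated reads in AA and on 7, 4 and 12 in HA. SLC26A2, whose line shares the interval and which was looked up for that reason, had 11.2, 10.6 and 10.8 FPKM in AA against 6.59, 9.65 and 9.29 FPKM in HA. Reads of overlapping lines may have been divided between them by the authors' tools, and how far this touched PDGFRB was not tested.

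PDGFRA, the gene of receptor alpha, had no line in the gene table. It was represented by 2 processed transcripts in the noncoding RNA table, both at chr8:43008335-43046215 on the plus strand and annotated as overlapping exons of the PDGFRA mRNA in sense. Their sum was 13.1, 17.5 and 19.1 FPKM in AA against 8.74, 5.15 and 6.26 FPKM in HA. All 3 AA libraries were above all 3 HA libraries, with a smaller gap than for PDGFRB. The mean sum was 16.6 ± 3.07 FPKM in AA and 6.72 ± 1.84 FPKM in HA (SD, n = 3 each), a ratio of 2.47 and a log2(FPKM + 0.1) difference of 1.31 (SE 0.41). It rested on 611, 650 and 931 estimated reads in AA and on 396, 277 and 320 in HA. PDGFRA was also steadier within groups than PDGFRB, as the highest library had 1.45 times the level of the lowest in AA and 1.70 times in HA. An mRNA line of PDGFRA was not analysed here, so the mRNA and the processed transcripts could not be set side by side.

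The 2 PDGFRA transcripts did not share the pattern equally. Transcript 1 (ENSSSCT00000009678, 3035 nt) had 5.77, 9.28 and 8.54 FPKM in AA against 8.74, 5.15 and 2.68 FPKM in HA. Its groups overlapped, since HA library 1 exceeded AA libraries 1 and 3, and its log2 difference was 0.63 (SE 0.59). Transcript 2 (ENSSSCT00000034014, 2859 nt) had 7.37, 8.19 and 10.5 FPKM in AA against 3.65e-05, 6.14e-05 and 3.58 FPKM in HA. Nearly no reads were given to transcript 2 in HA libraries 1 and 2, whereas HA library 3 divided its reads between both transcripts as the AA libraries did. In percent of the PDGFRA sum, transcript 1 made up 43.9%, 53.1% and 44.8% in AA and 42.8% in HA library 3. The division between both transcripts, which share exons, was estimated by the authors' tools from the reads. The log2 difference of transcript 2 was 4.71 (SE 1.51) and depended on the value added before taking logs, while the sum did not depend on this division.

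**Figure D1:**
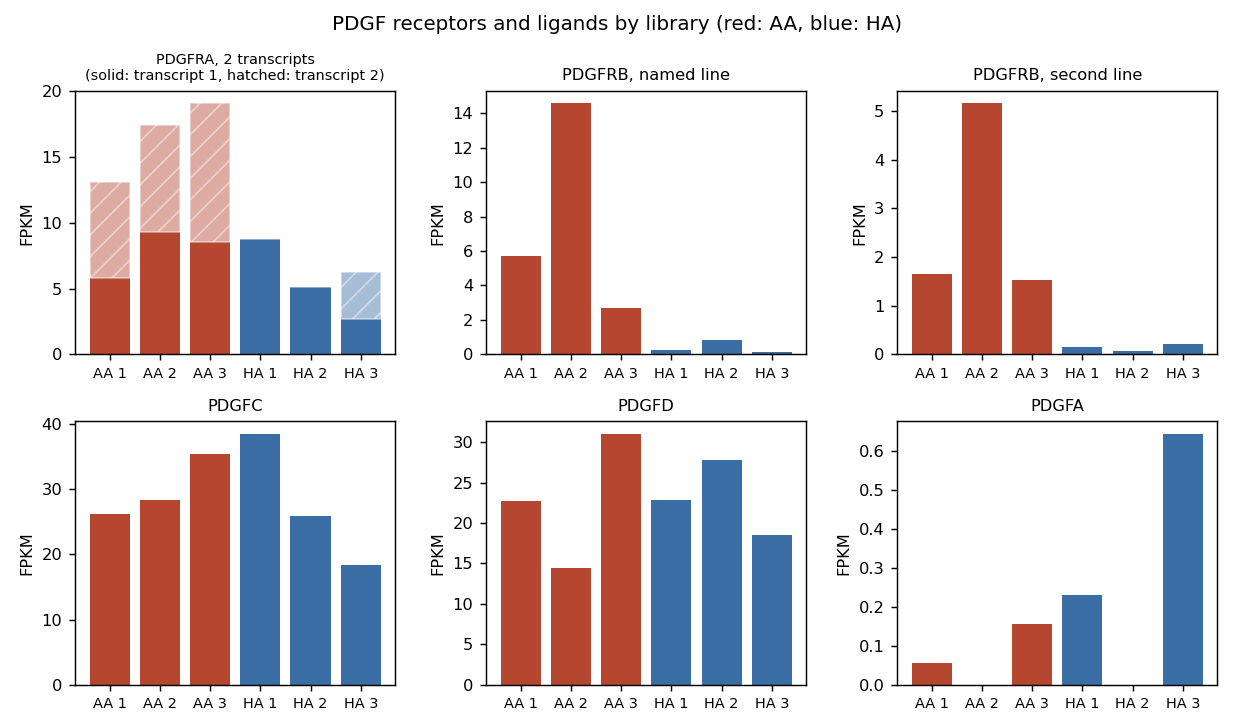
FPKM (vertical axes, each starting at 0 with its own scale) of the PDGF receptors and ligands in each of the 3 AA libraries (red) and 3 HA libraries (blue), with 1 bar per library. Both PDGFRB lines and the PDGFRA sum were higher in every AA library than in any HA library, PDGFC and PDGFD overlapped between the groups, and PDGFA stayed at or below 0.645 FPKM; PDGFB, listed at 0 in all 6 libraries, is not drawn.

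PDGFC, a ligand of receptor alpha, was the most abundant member in both groups. Its levels of 26.2, 28.3 and 35.4 FPKM in AA lay within the range of the 38.5, 25.9 and 18.4 FPKM in HA. The means were 30.0 ± 4.83 FPKM in AA and 27.6 ± 10.1 FPKM in HA (SD, n = 3 each), and the log2 difference was 0.17 (SE 0.27). Its sign turned to −0.08 without HA library 3. PDGFD, the ligand of receptor beta, followed with 22.7, 14.5 and 31.0 FPKM in AA against 22.8, 27.8 and 18.5 FPKM in HA. These groups overlapped as well, with the lowest and the highest value both in AA, and the log2 difference was −0.06 (SE 0.29). Without AA library 2 it was 0.21 and without HA library 2 it was 0.08, so that no direction can be given for PDGFD.

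PDGFA, the ligand that binds receptor alpha only, was close to the detection limit. It had 0.0551, 0 and 0.155 FPKM in AA against 0.230, 0 and 0.645 FPKM in HA, from an estimated 1, 0 and 3 reads for AA, against 4, 0 and 13 for HA. The groups overlapped, and a difference was not detectable at this depth. PDGFB, the ligand that binds both receptors and that platelets carry in quantity, was listed at 0 in all 6 libraries. PDGFC and PDGFD together therefore held at least 98.3% of the summed ligand FPKM in every library. PDGFC was 53.5%, 66.2% and 53.2% of that sum in AA and 62.6%, 48.2% and 49.0% in HA, again overlapping. The genes of the ligands, with builds as above, lay at chr8:47675546-47774058 (PDGFC), chr9:38454986-38615959 (PDGFD), chr3:154799-169916 (PDGFA) and chr5:6331336-6333160 (PDGFB), all on the minus strand.

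By mean FPKM, a level per transcript length, the order of the members was the same in both groups: PDGFC, PDGFD, PDGFRA, PDGFRB, PDGFA and PDGFB. In this order PDGFRA stands for the sum of its processed transcripts and PDGFRB for its named line. In AA the neighbours PDGFC and PDGFD, PDGFD and PDGFRA, and PDGFRA and PDGFRB overlapped between libraries, and so did PDGFA and PDGFB, while PDGFRB and PDGFA were apart. In HA, PDGFRA was apart from PDGFD above it and from PDGFRB below it, whereas PDGFRB overlapped with PDGFA. Seen against the whole gene table, the mean of PDGFC exceeded that of 85.7% of gene lines in AA and 84.6% in HA, and the mean of PDGFRB exceeded 62.2% in AA and 39.2% in HA.

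The balance between the receptors was read as the share of PDGFRB. It made up 30.4%, 45.5% and 12.4% of the summed receptor FPKM in AA against 3.01%, 14.2% and 1.82% in HA. The groups overlapped in this share, because HA library 2 exceeded AA library 3. The summed ligand FPKM was 2.59, 1.34 and 3.06 times the summed receptor FPKM in AA against 6.82, 8.95 and 5.88 times in HA, without overlap. The ligand sums themselves overlapped, at 48.9, 42.8 and 66.6 FPKM in AA against 61.5, 53.7 and 37.5 FPKM in HA, and the ratio contains the receptor values that had served to choose the family. The values of PDGFRA and of the other members came from separate deposited tables, and whether these were scaled alike was not tested. PDGFRA entered by its 2 processed transcripts and PDGFRB by its named line alone, so these shares and ratios are not proportions of receptor mRNA.

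**Figure D2:**
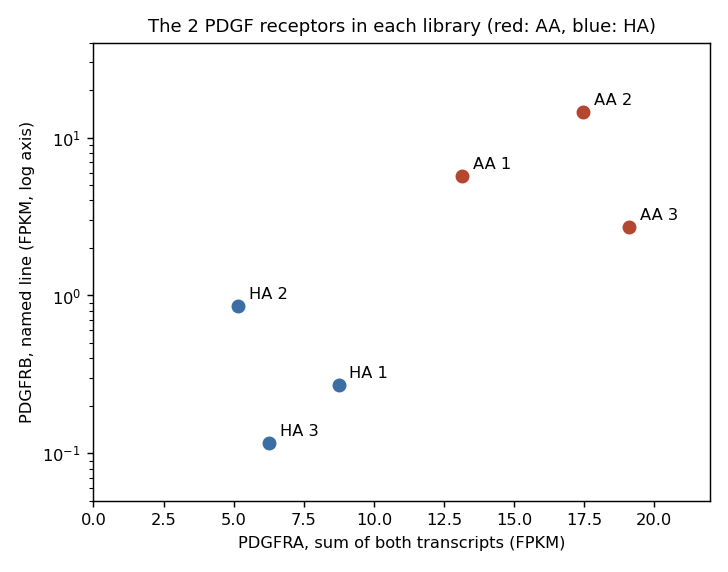
PDGFRA (sum of both transcripts, FPKM, horizontal axis) against PDGFRB (named line, FPKM, vertical log axis), with 1 point per library, 3 AA in red and 3 HA in blue. The AA libraries lie at 13.1 to 19.1 FPKM of PDGFRA and 2.71 to 14.6 FPKM of PDGFRB, the HA libraries at 5.15 to 8.74 FPKM and 0.116 to 0.855 FPKM, and the highest PDGFRA (AA library 3) is not in the library with the highest PDGFRB (AA library 2).

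In the limma fit over the 11001 gene lines that reached 1 FPKM in 3 or more libraries, 0 genes were higher in AA (0%) and 0 were lower (0%) at a p of at most 0.05 after Benjamini-Hochberg adjustment. The smallest adjusted p was 0.0568, although 1718 genes had an unadjusted p of at most 0.05, 9.48% of all tested as higher and 6.14% as lower in AA, and 243 genes had an adjusted p of at most 0.1. With the replicate number as a block 13 genes were called, and without AA library 3 it was 105. Of the members, PDGFRB, PDGFC and PDGFD entered the fit by their named lines, and 0 of these 3 were called. PDGFRB alone was called when AA library 3 was left out, and PDGFC and PDGFD were called in none of the fits at this threshold. PDGFRB entered only through AA and was 1 of 111 genes that reached 1 FPKM in all 3 AA libraries and in no HA library, so that the filter fixed its separation. The same held for the second PDGFRB line. Among all genes tested, the AA libraries were all above the HA libraries for 11.9% and all below for 9.1%, and among 108 noncoding lines with the PDGFRA transcripts summed 5.56% were all above. As the members were chosen on this contrast, nothing is read from their count.

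The circRNA table had 4 circRNAs of these genes, with 49 of its 183089 reads across back-splice junctions, the joins of a later exon end to an earlier start that mark a circle. A PDGFRB circRNA (chr2:158058831-158121727, minus strand) had 10, 9 and 0 reads in AA against 0, 0 and 2 reads in HA. The groups overlapped at 0, and the junction ran from inside the interval of the named PDGFRB line to inside that of the second line, across 62897 nt. It was the only 1 of the 4 to reach 2 reads in 3 libraries and to be tested. By the quasi-likelihood test of edgeR its log2 difference of 3.03 had a p of 0.254 and an adjusted p of 0.998 over 1014 circRNAs, and by DESeq2 the p was 0.240 and the adjusted p 0.999. Over all circRNAs tested, 0.0986% were called by edgeR.

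The remaining 3 circRNAs were too sparse for a test. A PDGFC circRNA (chr8:47773859-47786617, minus strand, 12759 nt) had 2, 0 and 0 reads in AA against 0, 0 and 6 reads in HA. Its gene is that of the authors' annotation, and most of its span lay beyond the PDGFC line, which ended at 47774058. PDGFD gave a sense overlapping circRNA of 35039 nt (chr9:38455021-38490059), with 0, 0 and 0 reads in AA against 0, 6 and 0 in HA, and an intronic circRNA of 405 nt (chr9:38484705-38485109), with 0, 14 and 0 reads in AA against 0, 0 and 0 in HA. Each PDGFD circRNA was thus seen in a single library. Both were absent from the earlier pig circRNA lists that the authors annotated, and the PDGFRB and PDGFC circRNAs were present in them. No circRNA of PDGFRA, PDGFA or PDGFB was listed, and with libraries of 25838 to 34414 junction reads a circle of a few copies may have been missed. Detection was uneven, with 3036, 1270 and 1620 circRNAs in AA libraries 1, 2 and 3 against 1416, 2804 and 3465 in HA. The PDGFC circRNA was seen only in AA library 1 and HA library 3, where the most circRNAs were detected.

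Genes that act around the PDGF receptors were taken in 6 lists, none of which held a member. They named 114 genes, of which 94 had a line and 83 were tested. None passed the adjusted p of at most 0.05 (0 higher and 0 lower in AA). At an unadjusted p of at most 0.05 limma gave 23 as higher and 3 as lower in AA, beside 9.48% higher and 6.14% lower over all genes tested, the shares against which the counts of each list below are to be read. The median log2 difference of the 83 pathway genes was 0.26 against 0.01 over all genes tested. With the replicate number as a block, 1 gene was called (PLAT), and without AA library 3, 5 genes were called (DUSP4, PLAT, NRP1, IER2 and IER3).

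Ligand activation and co-receptors came first among these lists. PLAT, tissue plasminogen activator, is the protease known to activate PDGFC, and it had 46.8, 91.1 and 46.0 FPKM in AA against 10.9, 18.0 and 11.7 FPKM in HA. All AA libraries were above all HA libraries, and the log2 difference was 2.06 (SE 0.31, limma adjusted p = 0.0568). The adjusted p was 0.0398 with the block and ran up to 0.199 over the 13 alternatives. NRP1, neuropilin 1, a co-receptor for VEGF and PDGF ligands, had 55.3, 98.3 and 52.5 FPKM in AA against 21.6, 17.4 and 10.4 FPKM in HA, likewise apart, with a log2 difference of 1.99 (SE 0.32, limma adjusted p = 0.0578). Of the 14 tested genes of this list, 5 were higher and 1 lower at the unadjusted p, and the median log2 difference was 0.32.

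Further proteases that cut PDGF ligands were looked at after their values were seen. FURIN, the convertase that cuts the precursors of PDGFA and PDGFB, had 28.9, 26.5 and 25.7 FPKM in AA against 14.8, 13.6 and 18.3 FPKM in HA (log2 difference 0.77, SE 0.19, limma adjusted p = 0.116). ST14, matriptase, which can activate PDGFD, had 2.60, 3.52 and 2.55 FPKM in AA against 0.579, 0.222 and 1.19 FPKM in HA (log2 difference 1.26, limma adjusted p = 0.132). Both were apart between the groups without passing the test. PLAU, urokinase, the other known activator of PDGFD, overlapped, with 1.06, 3.74 and 0.532 FPKM in AA against 1.24, 0.427 and 0.410 FPKM in HA. The levels of PLAT and FURIN were thus above those of ST14 and PLAU in every library of both groups. Also on this list, PCSK5, PCSK6 and PCSK7 overlapped between the groups, with log2 differences of −0.23, 0.08 and 0.08.

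**Figure D3:**
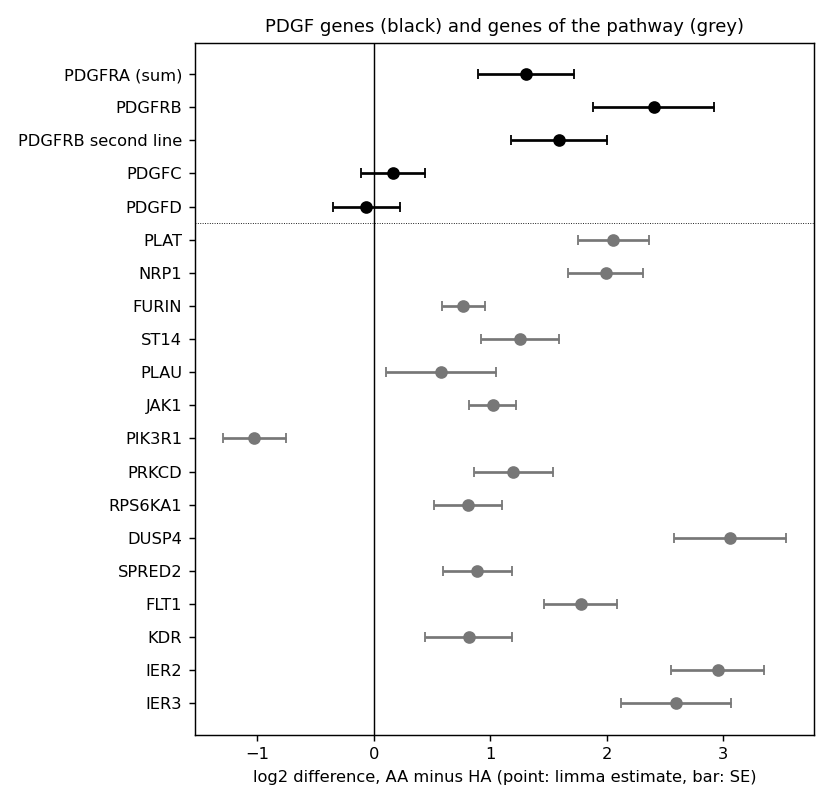
Log2 difference of AA minus HA (horizontal axis, limma estimate as a point with its SE as a bar) for the PDGF genes (black, above the dotted line) and for 15 genes of the pathway lists (grey). PDGFRB (2.40) and the PDGFRA sum (1.31, with 0.1 instead of 1 added before logs) lie right of 0 while PDGFC (0.17) and PDGFD (−0.06) lie at it, and of the pathway genes shown only PIK3R1 (−1.02) lies left of 0. The pathway genes shown are the 2 of each list with the largest difference and 3 ligand proteases. PCSK5, PCSK6 and PCSK7, whose groups overlapped, are not drawn.

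Adaptors and proximal effectors carry the signal from the receptor's phosphorylated tail. Of 21 tested genes, 5 were higher and 1 was lower at the unadjusted p, with a median log2 difference of 0.21. JAK1, a Janus kinase, had 97.7, 150.3 and 101 FPKM in AA against 58.2, 59.2 and 50.1 FPKM in HA, with a log2 difference of 1.02 (SE 0.20, limma adjusted p = 0.0719). PIK3R1, the p85 alpha subunit that docks PI3 kinase to the receptor, lay the other way, with 4.98, 5.09 and 4.24 FPKM in AA against 11.8, 13.5 and 7.61 FPKM in HA. Its groups were apart too, with a log2 difference of −1.02 (SE 0.27, limma adjusted p = 0.129). PIK3R1 had 2 lines in the table, of which the more abundant is given.

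In the Ras, MAPK and AKT arm, 3 of 14 tested genes were higher and 0 lower at the unadjusted p, with a median log2 difference of 0.25. The largest differences were those of PRKCD, protein kinase C delta, with 6.60, 14.2 and 6.64 FPKM in AA against 3.58, 2.39 and 3.70 FPKM in HA, and of RPS6KA1, a kinase downstream of ERK, with 4.82, 7.50 and 3.98 FPKM in AA against 2.62, 2.37 and 2.72 FPKM in HA. Both were apart between the groups. The log2 differences were 1.20 (SE 0.34) for PRKCD and 0.81 (SE 0.29) for RPS6KA1, with limma adjusted p-values of 0.148 and 0.238.

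Dampers of receptor signalling gave the pathway gene with the largest log2 difference. DUSP4, a phosphatase that inactivates MAP kinases and is itself induced by them, had 11.3, 38.5 and 10.9 FPKM in AA against 0.833, 1.88 and 0.887 FPKM in HA. The groups were apart, AA library 2 was the highest, and the log2 difference was 3.06 (SE 0.48, limma adjusted p = 0.0568). SPRED2, an inhibitor of Ras to MAPK signalling, had 5.19, 7.61 and 4.39 FPKM in AA against 3.23, 2.01 and 2.54 FPKM in HA, with a log2 difference of 0.89 (SE 0.30, limma adjusted p = 0.205). Over the whole list of dampers, 2 of 16 tested genes were higher and 1 was lower at the unadjusted p, and the median log2 difference was 0.11.

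Early response genes are switched on within minutes to hours by growth factors, PDGF among them, and also by other stimuli. Of the 11 tested, 7 were higher and 0 lower in AA at the unadjusted p, and the median log2 difference of the 11 was 1.33. EGR2, 1 of the 7, was below 1 FPKM in every HA library and entered the fit only through AA, so that the filter fixed its separation. IER2 had 45.3, 79.6 and 23.1 FPKM in AA against 5.23, 4.17 and 5.02 FPKM in HA, a log2 difference of 2.95 (SE 0.40, limma adjusted p = 0.0568). IER3, a survival and stress response gene, had 9.83, 18.6 and 4.17 FPKM in AA against 0.723, 0.405 and 1.04 FPKM in HA, a log2 difference of 2.60 (SE 0.47, limma adjusted p = 0.0594). In both, all AA libraries were above all HA libraries, with the order of libraries 2, 1 and 3 in AA that PDGFRB also had.

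Receptors and growth factors related to the PDGF family included FLT1 and KDR, the VEGF receptors. FLT1 had 4.37, 5.61 and 4.04 FPKM in AA against 0.821, 0.997 and 0.228 FPKM in HA, apart and with a log2 difference of 1.78 (SE 0.32, limma adjusted p = 0.0594). KDR had 2.78, 6.12 and 4.25 FPKM in AA against 3.42, 1.37 and 1.47 FPKM in HA, and these groups overlapped, with a log2 difference of 0.82 (SE 0.37, limma adjusted p = 0.339). FLT1 was the only gene of the 7 tested in this list with an unadjusted p of at most 0.05. Like PDGFRB, FLT1 was below 1 FPKM in every HA library and entered the fit only through AA, so that the filter fixed its separation. CSF1R, the neighbour of PDGFRB on chromosome 2 and a relative of it among receptor kinases, did not reach the filter on low values and had 0.604, 1.52 and 0.710 FPKM in AA against 0.0856, 0.343 and 0.110 FPKM in HA.

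Because PDGF receptors are known from cells outside the granulosa layer, markers of other cell types were read beside them. In bulk RNA, fewer cells of a type and less RNA per cell cannot be told apart. The counts of each marker list at the unadjusted p stand beside 9.48% higher and 6.14% lower over all genes tested. Granulosa markers were abundant in every library, with a summed 2366 to 5736 FPKM over 8 genes in AA and 4753 to 10504 FPKM in HA. FSHR, the receptor of follicle stimulating hormone, had 92.0, 88.3 and 90.0 FPKM in AA against 51.0, 33.3 and 28.4 FPKM in HA. CYP19A1, aromatase, had 224, 128 and 307 FPKM in AA against 744, 1052 and 802 FPKM in HA, and FOXL2, a granulosa transcription factor, overlapped at 52.9, 32.9 and 43.6 FPKM in AA against 34.2, 60.3 and 76.0 FPKM in HA. All 3 of these defining granulosa markers were thus well expressed in every library of both groups. AA library 2, the library with the most PDGFRB, had the lowest granulosa sum of the 6. The largest parts of its sum were INHA (834 FPKM) and INHBA (883 FPKM), whereas its FSHR was above that of every HA library.

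Theca cells were judged by 9 genes with a line, whose sum was 85.9 to 128 FPKM in AA and 238 to 367 FPKM in HA. CYP17A1, the enzyme that defines androgen-making theca cells, was near 0 in AA, at 0.106, 0 and 0.1002 FPKM, against 0.297, 1.38 and 0.191 FPKM in HA. INSL3 had 23.6, 11.3 and 11.6 FPKM in AA against 26.7, 23.4 and 46.7 FPKM in HA, and LHCGR, which granulosa cells of large follicles also make, had 65.3, 21.2 and 58.9 FPKM in AA against 172, 286 and 250.0 FPKM in HA. The theca sums were lower in AA, and LHCGR was the largest part of them in HA, while INSL3 overlapped between the groups. STAR, another gene of the list named after its values were seen, overlapped too, with 1.36, 0.825 and 1.21 FPKM in AA against 0.258, 28.3 and 19.7 FPKM in HA. At the unadjusted p, 1 of the 5 tested theca genes was higher and 2 were lower in AA. The gene that was higher was NR2F2, a transcription factor of theca and stromal cells named here after its values were seen, with 22.7, 41.3 and 25.9 FPKM in AA against 20.6, 16.2 and 14.6 FPKM in HA, apart and with a log2 difference of 0.74 (limma adjusted p = 0.228).

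Pericyte and smooth muscle markers, by contrast, had a higher sum in AA, as the receptors had. Their sum over 10 genes with a line was 270, 431 and 251 FPKM in AA against 99.3, 62.3 and 32.9 FPKM in HA, apart and in the same order of AA libraries as PDGFRB. PDGFRA had another order of the AA libraries, and the order of the HA libraries was that of neither receptor. RGS5 was the largest part of it in AA, with 221, 326 and 203 FPKM in AA against 66.7, 44.4 and 11.4 FPKM in HA (log2 difference 2.87, limma adjusted p = 0.0692). All 4 tested genes of this list were apart with AA higher, beside 11.9% of all genes tested. Of these 4, 3 had an unadjusted p of at most 0.05. The defining markers CSPG4 and MCAM did not reach the filter, and neither did DES, CNN1, KCNJ8 and ABCC9, which overlapped between the groups. CSPG4 was near 0 at 0.0539, 0.0389 and 0.170 FPKM in AA against 0, 0.111 and 0.0421 FPKM in HA, and MCAM overlapped at 0.822, 0.972 and 1.04 FPKM in AA against 0.555, 0.663 and 1.16 FPKM in HA.

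Leukocyte and macrophage markers had a higher sum in AA too. Their sum over 13 genes was 119, 350.0 and 66.8 FPKM in AA against 39.1, 12.6 and 12.0 FPKM in HA, with the AA libraries once more in the order of PDGFRB. The AA libraries were not in the order of PDGFRA, and the HA libraries were in the order of neither receptor. Of 9 tested genes, 8 were higher in AA at the unadjusted p. CD68 had 8.87, 32.7 and 5.96 FPKM in AA against 0.913, 1.03 and 0.640 FPKM in HA, PTPRC, which marks all leukocytes, overlapped at 0.868, 9.02 and 3.22 FPKM in AA against 1.20, 0.425 and 0.556 FPKM in HA, and CD163 was listed at 0 in all 6 libraries. Every AA library had a leukocyte sum above that of every HA library, and the same held for PDGFRB. AA library 2 had both the highest leukocyte sum and the highest PDGFRB. Leaving it out therefore had to lower the log2 difference of PDGFRB, which was then 1.86, and this tells nothing about leukocytes.

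Fibroblast and endothelial sums were also higher in every AA library than in any HA library, the fibroblast sum only through the gene FBLN1. Fibroblast and stroma genes summed to 50.7 to 108 FPKM over 10 genes in AA and 25.0 to 36.4 FPKM in HA, and 1 of 5 tested genes was higher in AA at the unadjusted p. This gene, FBLN1, an extracellular matrix glycoprotein named here after its values were seen, had 46.8, 49.4 and 28.1 FPKM in AA against 14.7, 11.9 and 22.05 FPKM in HA, apart and with a log2 difference of 1.30 (limma adjusted p = 0.0943). FBLN1 was the largest part of the fibroblast sum in every library, and the separation of that sum depended on it. The other tested genes of the list, COL1A1, COL1A2, COL3A1 and DCN, overlapped between the groups. The defining collagen genes COL1A1, COL1A2 and COL3A1 had log2 differences of 0.34, 0.41 and 0.45, and the values of COL1A1 were 1.57, 13.3 and 0 FPKM in AA against 0, 2.92 and 3.57 FPKM in HA. Endothelial genes summed to 13.1, 34.4 and 21.5 FPKM over 9 genes in AA and 4.80 to 10.1 FPKM in HA. Of 4 tested genes, 3 were higher in AA at the unadjusted p. By the endothelial sum the AA libraries were not in the order of PDGFRB, while by the fibroblast sum (60.0, 108 and 50.7 FPKM) they were. PECAM1 had 4.58, 8.74 and 8.79 FPKM in AA against 1.15, 4.42 and 1.70 FPKM in HA, VWF stayed at or below 0.688 FPKM in every library, and CDH5 had no line.

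Platelets, which store PDGFB, left little trace, as PF4 was listed at 0 in all 6 libraries and the platelet sum was 1.82 to 2.62 FPKM in AA and 2.06 to 3.07 FPKM in HA, mostly from ITGA2B. Oocyte and cumulus genes summed to 13.1 to 20.3 FPKM in AA and 12.3 to 18.3 FPKM in HA, with ZP2, ZP3 and ZP4 below 1 FPKM in every library. Over all marker lists, 0 of 37 tested genes were called, 17 were higher and 4 were lower at the unadjusted p, and without AA library 3, 4 were called (CYP19A1, NR5A2, CD68 and C1QA). The part of the pericyte, endothelial, fibroblast and leukocyte markers in the levels of PDGFRA and PDGFRB was not tested.

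**Figure D4:**
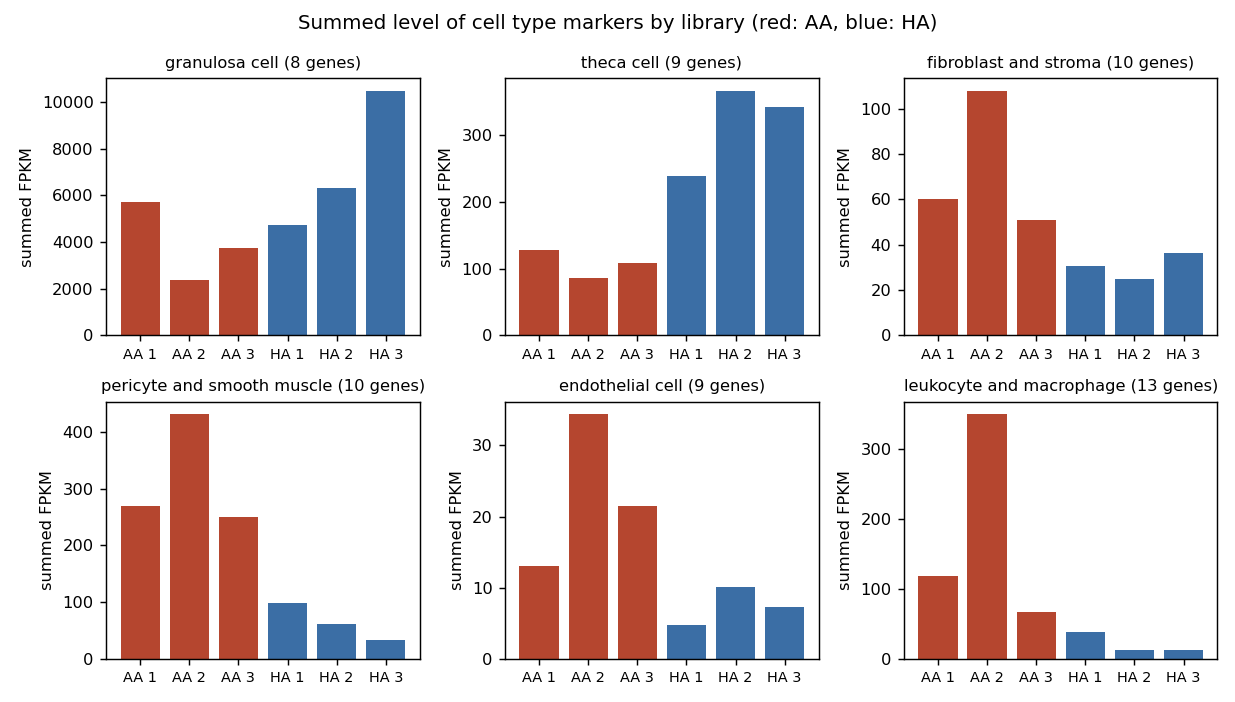
Summed FPKM (vertical axes, each starting at 0 with its own scale) of the markers of 6 cell types in each AA library (red) and HA library (blue), with the number of genes that have a line in brackets. The pericyte and smooth muscle sum (251 to 431 FPKM in AA, 32.9 to 99.3 FPKM in HA) and the leukocyte sum (66.8 to 350.0 FPKM in AA, 12.0 to 39.1 FPKM in HA) are higher in every AA library. The theca sum is lower in every AA library, and its largest part in HA is LHCGR, which granulosa cells of large follicles also make.

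The genes whose levels were most like those of the receptors over the 6 libraries are given as a description. For PDGFRA these were AMOT (Pearson r = 0.993), PPP4R1 (0.990), PCDHGB4 (0.990), ABHD12B (0.988) and CD9 (0.988), and 50 of 11001 genes had an r of at least 0.95. Closest to PDGFRB were EPB41L1 (r = 0.998), LUZP1 (0.996), TRAF3IP2 (0.995), MICAL1 (0.995) and KALRN (0.994), with 259 of 11000 genes at an r of at least 0.95. The second PDGFRB line, with an r of 0.961, came 171st in that order. The top genes of both receptors were all higher in every AA library than in any HA library, as the receptors were. Those of PDGFRB had their highest value in AA library 2 (MICAL1 with 20.9, 43.6 and 14.8 FPKM in AA against 4.29, 6.62 and 4.82 FPKM in HA), while CD9, a tetraspanin of the PDGFRA group, had its highest value in AA library 3 (13.7, 16.8 and 19.5 FPKM in AA against 11.9, 7.38 and 8.22 FPKM in HA). An r over 6 libraries in 2 groups carries the group difference and the shared library, and no p is attached to it.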

How the data were processed

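Mural granulosa cells of 3 AA and 3 HA pools were sequenced as stranded, rRNA-depleted RNA. Per the labels and the paper's methods, the authors trimmed reads with cutadapt and ran bowtie2 and find_circ on the pig assembly Sscrofa10.2 to read back-splice junctions, and the deposited circRNA table holds their junction read count per library and log2 values scaled to mapped reads. The deposited gene and noncoding RNA tables hold the FPKM that the authors obtained with TopHat and Cufflinks (version not given in the sources used here). Both tables add counts that the authors scaled, a signal that was used only to estimate reads. In the gene table between 99.8% and 99.9% of low values were whole multiples of 1 step per library (tolerance 0.1 reads), giving 10240700 to 15462500 reads in genes per library, with AA library 2 the lowest.

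FPKM were tested with limma 3.58.1 (trend, R 4.3.3) on log2(FPKM + 1) for the 11001 genes that reached 1 FPKM in 3 or more libraries, and on log2(FPKM + 0.1) for the 109 noncoding transcripts that reached 0.1 FPKM in 3 or more. For the 1014 circRNAs that reached 2 reads in 3 or more libraries, junction counts went into the quasi-likelihood test of edgeR 4.0.16, with library sizes from the mapped-read constants and calls at a 2-fold difference and an adjusted p up to 0.05. DESeq2 1.42.0 was the alternative there. P-values were adjusted by Benjamini-Hochberg over all features of a fit. The fits were tested on simulated data. Alternatives were the replicate number as a block, another pseudocount, other filters, scalings and thresholds, and leaving out each library.

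The members, the pathway lists and the marker lists were chosen with earlier results of these data known. Named were all members and their circRNAs, the 2 genes of each pathway list with the largest absolute log2 difference, the first 3 genes of each marker list, and the 5 genes most like each receptor. Others were named after their values were seen. Samples were grouped by their titles, and the value columns that matched no sample numbered 0. Libraries of the same number carry the same date in the labels, which was read as a shared day. After centring on the groups, the correlations of same-numbered libraries were −0.29, 0.00 and −0.40, so the values showed no pairing by number, and the replicate block was kept as an alternative. The gene table names 13088 lines, and a reference list named 1528 more.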

Additional observations from a re-analysis of the deposited data

How the results depend on the processing

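The direction of both PDGFRB lines, of the PDGFRA sum and of both PDGFRA transcripts was the same in every alternative run. Except for PDGFRA transcript 1 their groups did not overlap, so leaving out a library or changing the value added before logs could not turn it. The receptors had been chosen on this contrast, so nothing is read from this direction or from the member calls that follow. Of the 3 member lines tested, 0 were called, and leaving out single libraries gave 0 to 1 (1, PDGFRB, without AA library 3), an adjusted p up to 0.1 gave 1 and an unadjusted p up to 0.05 gave 1, both limits added after the data were seen. Of the pathway genes 0 were called, with 1 under the replicate block, 0 to 5 leaving out single libraries (5 without AA library 3), 10 at the adjusted and 26 at the unadjusted limit just given. Of the marker genes 0 were called, with 0 to 4 leaving out single libraries (4 without AA library 3), 8 and 21 at these looser limits. Of all 11001 genes 0 were called, with 13 under the replicate block, 11 with median-ratio scaling, 0 to 105 leaving out single libraries (2 without AA library 1, 6 without AA library 2 and 105 without AA library 3), 243 and 1718 at the looser limits. Why AA library 3 weighed this much was not tested. The block changed no other call, and no library correlated best with its own number. With 0.1 in place of 1 added before logs, the log2 difference was 3.87 for the named PDGFRB line and 3.37 for the second line, and with 1 in place of 0.1 it was 2.53 for PDGFRA transcript 2. Leaving out single libraries gave 1.86 to 2.89 for the named PDGFRB line, 1.18 to 1.82 for the second line, 1.14 to 1.51 for the PDGFRA sum, 0.20 to 1.03 and 3.84 to 6.44 for PDGFRA transcripts 1 and 2, −0.08 to 0.43 for PDGFC, −0.31 to 0.21 for PDGFD, and 0 called circRNAs of the 4. The filter of at least 5 FPKM in at least 3 libraries left PDGFRB untested and gives no value for it. The few reads of PDGFRB in HA and the sparse junction reads limit how closely their ratios are known.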
